A study of Homo sapiens with 12 samples.

Results

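The 10 genes described here encode small proline-rich proteins (SPRR1A, SPRR1B, SPRR2A, SPRR2D, SPRR3) and other components or makers of the cornified envelope of squamous epithelium (IVL, TGM1, CNFN, CRCT1), together with EMP1, an epithelial membrane protein of the PMP22 family. They were taken by symbol from a table of 58288 genes. RNA was sequenced from FaDu cells, an established human head and neck squamous cell carcinoma (HNSCC) line carrying Cas9, that had been transduced with a non-targeting guide RNA (STING WT) or with a guide RNA against TMEM173, the gene for STING (STING KO). Cells of each genotype were left at 0 Gy or irradiated with 4 daily fractions of 2 Gy (RT), and 3 libraries were made in each of the 4 groups, 12 in all. All cells were grown in DMEM with 10% FBS and all carried Cas9 and a guide. The paper names 1 guide per genotype for these experiments. It describes puromycin selection after transduction and does not say whether the cells were a clone or a selected pool. A difference between KO and WT is therefore a difference between 2 derived lines. The time from the last fraction to RNA collection was not given in the sources used here, nor whether the 3 libraries came from separate cultures, so p-values measure the spread between these libraries, which may be technical.

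Keratinocytes that leave the basal layer build the cornified envelope beneath the plasma membrane. Transglutaminases such as TGM1 crosslink precursors, among them involucrin (IVL) and the SPRR proteins, and the SPRR and IVL genes lie together in the epidermal differentiation complex on chromosome 1. SPRR genes are also known to be induced in stressed and transformed squamous cells, and AP-1 and KLF4 are among the factors known to act on genes of this complex.

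In these FaDu cells the envelope genes did not move as a block. SPRR1B rose 1.94-fold in WT and 2.07-fold in KO cells after radiation, TGM1 fell after radiation in both, and EMP1 and CNFN did not pass the test in any comparison. Of the 10 genes, 5 (SPRR1A, SPRR1B, TGM1, CNFN and EMP1) reached 1 TPM (transcripts per 1e+06 transcripts) in 3 or more libraries and were tested. SPRR2A, SPRR2D, IVL and SPRR3 stayed under that level, and CRCT1 was listed at 0 in all 12 libraries. The mean was highest in the irradiated KO group for 7 of the 10 genes. Of these, SPRR2A, SPRR2D, SPRR3 and IVL stayed under 1 TPM, and SPRR3 was at 0 in 11 libraries. SPRR2D had means of 0.580 TPM in irradiated KO and 0.545 TPM in irradiated WT, with overlap. No KO against WT difference passed for SPRR1A, SPRR1B or EMP1. The share of all genes with their highest mean in this group was not computed.

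The coding sequences of SPRR1A and SPRR1B are shown because the pair is near-identical and both were measured. In the GENCODE 29 transcripts (GRCh38) each has 270 coding bases, 96.3% identical with no gap, and the capitals mark the 10 positions that differ.
SPRR1A: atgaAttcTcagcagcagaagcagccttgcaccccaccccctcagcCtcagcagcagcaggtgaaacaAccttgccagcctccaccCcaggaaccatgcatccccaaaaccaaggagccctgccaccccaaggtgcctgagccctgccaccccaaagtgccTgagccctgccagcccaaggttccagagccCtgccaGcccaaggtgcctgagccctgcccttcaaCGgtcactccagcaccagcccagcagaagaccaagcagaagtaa
SPRR1B: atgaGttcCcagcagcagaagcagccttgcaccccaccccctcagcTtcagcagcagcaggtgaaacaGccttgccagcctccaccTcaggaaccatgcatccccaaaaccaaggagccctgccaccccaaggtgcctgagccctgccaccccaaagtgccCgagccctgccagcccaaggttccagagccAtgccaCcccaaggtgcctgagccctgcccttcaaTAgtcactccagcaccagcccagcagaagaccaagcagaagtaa
No window of 100 bases, the read length, was shared between the SPRR1A or SPRR1B transcript and any other gene's transcript. In SPRR2A, 20.3% of windows were shared with SPRR2B, SPRR2D or SPRR2E, and in SPRR2D 4.56% were shared with SPRR2A, SPRR2B or SPRR2E, so the SPRR2A and SPRR2D values are uncertain between these paralogs.

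SPRR1A (ENSG00000169474.4) is placed by GENCODE 29 at chr1:152985231-152985500 on the plus strand of GRCh38, as a single exon that holds only the coding bases, whereas RefSeq gives it a span of 1734 bases. The annotation behind the deposited values was not given in the sources used here. The level of SPRR1A per length therefore could not be compared safely with that of SPRR1B (ENSG00000169469.8, 2 exons at chr1:153031202-153032900, plus strand). By these positions 45701 bases lie between the end of SPRR1A and the start of SPRR1B. SPRR2A and SPRR2D lie on the minus strand and SPRR3 and IVL on the plus strand of the same complex. TGM1 lies at chr14:24249114-24264432 on the minus strand, CNFN at chr19:42387019-42390287 on the minus strand and EMP1 at chr12:13196716-13219939 on the plus strand. No annotated gene overlapped any of the 10.

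Promoters are shown for SPRR1A, SPRR1B and IVL, from the complex, and for EMP1, from outside it. RefSeq promoter windows (GRCh38.p14, 250 bases before the start to 50 after) were found for 7 of the 10 genes. The 200 bases just before the start follow, with matches to TGANTCA (the core of an AP-1 site) and to TATAAA, the letters of the basal promoter element of that name, in capitals, searched on both strands. The windows are chr1:152983881-152984080, plus strand for SPRR1A, chr1:153031003-153031202, plus strand for SPRR1B, chr1:152908346-152908545, plus strand for IVL and chr12:13196526-13196725, plus strand for EMP1.
SPRR1A: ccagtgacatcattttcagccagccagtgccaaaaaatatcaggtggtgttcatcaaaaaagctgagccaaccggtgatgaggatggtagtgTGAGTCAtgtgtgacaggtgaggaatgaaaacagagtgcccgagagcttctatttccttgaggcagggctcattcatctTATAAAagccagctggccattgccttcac
SPRR1B: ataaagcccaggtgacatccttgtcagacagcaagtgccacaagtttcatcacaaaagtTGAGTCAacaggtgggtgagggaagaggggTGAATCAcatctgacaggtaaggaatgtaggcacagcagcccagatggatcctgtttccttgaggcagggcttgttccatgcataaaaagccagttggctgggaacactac
IVL: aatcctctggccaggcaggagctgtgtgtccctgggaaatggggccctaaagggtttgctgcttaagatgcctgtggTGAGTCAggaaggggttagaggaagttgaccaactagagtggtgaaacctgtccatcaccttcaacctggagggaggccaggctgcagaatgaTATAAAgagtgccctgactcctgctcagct
EMP1: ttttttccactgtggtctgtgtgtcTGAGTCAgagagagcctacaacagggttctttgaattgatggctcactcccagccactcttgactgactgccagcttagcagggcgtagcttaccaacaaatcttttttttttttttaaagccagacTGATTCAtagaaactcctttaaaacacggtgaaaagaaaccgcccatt
TGANTCA occurred in the 300-base windows of 6 of the 7 genes, all but CNFN, and in 7.71% of all 35116 RefSeq promoters. SPRR1B and EMP1 had 2 matches each. TATAAA occurred in 4 of the 7 (SPRR1A, SPRR2A, SPRR3 and IVL), each beginning 29 or 30 bases before the start, and in 11.5% of all promoters. Also searched were CACCC, a KLF-type box, found in 6 of the 7 and in 59.9% of all promoters, and AGGAAG, an ETS-type core, found in 4 of the 7 and in 33.6%. These are descriptions of letters in a window, and no binding was measured here.

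STING KO was checked first. TMEM173 had a mean of 22.1 ± 1.24 TPM (SD, n = 3) in unirradiated WT and 5.81 ± 0.995 TPM in unirradiated KO libraries, and 23.1 ± 2.61 against 6.95 ± 0.544 TPM after radiation (log2 fold change -1.77 and -1.60, limma adjusted p = 1.16e-05 and 2e-05), so KO cells kept part of this RNA. The paper reports loss of STING protein in its knockout cells by immunoblotting. Protein was not measured here. Epithelial markers were expressed at unlike levels. KRT5, KRT14, KRT17, KRT6A, TP63, EPCAM, CDH1, DSG3 and SFN were all measured and summed to between 7339 and 10139 TPM in every library. Most of this sum was KRT5 (group means of 2158 to 3790 TPM) and KRT17 (3104 to 4281 TPM), whereas DSG3 had group means of 26.9 to 35.9 TPM. Of 14 markers of stromal, immune, endothelial and melanocytic cells, 8 had a mean under 0.1 TPM, among them PTPRC, DCN, PECAM1 and MLANA, and 6 had a mean of at least 1 TPM. Those 6 were COL1A1, CD14, CD68, VWF, CDH5 and PMEL, the highest being CD68, with group means of 18.3 to 28.6 TPM, and CDH5, with 9.57 to 17.3 TPM. Libraries of the same group correlated between 0.983 and 0.987 across tested genes, and none stood apart. In bulk RNA, fewer cells expressing a gene and less RNA per cell cannot be told apart.

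SPRR1B, a crosslinked envelope precursor, had ranges that did not overlap between the 4 groups. It was measured at 4.82, 4.57 and 5.88 TPM in unirradiated WT, 6.20, 7.69 and 7.23 TPM in unirradiated KO, 12.5, 8.38 and 8.66 TPM in irradiated WT and 13.3, 14.9 and 15.5 TPM in irradiated KO libraries. In that order of groups, each range lay above the one before. Over the 4 comparisons made, libraries did not overlap for 20.6% to 24.8% of all tested genes, and the share for the whole order was not computed. The step from unirradiated KO to irradiated WT changes both genotype and dose and was not tested. Within irradiated WT, library 1 stood above the other two. After radiation SPRR1B rose 1.94-fold in WT cells by the ratio of mean TPM (log2 fold change of TPM + 1 0.82, SE 0.15, limma adjusted p = 0.0141), and 2.07-fold in KO cells (log2 fold change 0.95, SE 0.15, limma adjusted p = 0.00631). KO against WT gave log2 fold changes of 0.40 in unirradiated cells (limma adjusted p = 0.236) and 0.54 in irradiated cells (95% interval 0.21 to 0.86, limma adjusted p = 0.0785). Neither passed the threshold. Without library 1 of irradiated WT, the irradiated KO against WT value was 0.70 and passed (limma adjusted p = 0.0186), and the radiation effect in WT was 0.65 (limma adjusted p = 0.0309). The rise in WT was lost without library 1 or library 2 of unirradiated WT (limma adjusted p = 0.0551 and 0.0535), whereas the rise in KO cells kept its call with every library left out in turn.

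SPRR1A, the closest relative of SPRR1B, was more scattered relative to its mean. Its TPM values were lower, but the levels of the pair cannot be compared safely, since the transcript lengths used were not known. SPRR1A stood at 1.22, 1.00 and 0.474 TPM in unirradiated WT, 2.64, 1.62 and 2.21 TPM in unirradiated KO, 2.82, 1.74 and 4.10 TPM in irradiated WT and 2.79, 4.62 and 6.73 TPM in irradiated KO libraries. The group means followed the same order as for SPRR1B, but unirradiated KO overlapped irradiated WT, and irradiated WT overlapped irradiated KO. No difference passed: the log2 fold change with radiation was 1.01 in WT (SE 0.29, limma adjusted p = 0.0954) and 0.81 in KO (SE 0.29, limma adjusted p = 0.172). KO against WT gave 0.74 in unirradiated and 0.54 in irradiated cells (SE 0.29, limma adjusted p = 0.284 and 0.381). When the TPM of SPRR1A and SPRR1B were summed, the sum ranged from 5.57 to 6.35 in unirradiated WT, 8.84 to 9.44 in unirradiated KO, 10.1 to 15.3 in irradiated WT and 16.0 to 22.2 in irradiated KO libraries. SPRR1B made up most of the sum in each group mean, so the sum largely repeats SPRR1B. TPM divides by transcript length, so a read assigned to the wrong gene of the pair would still shift this sum. It rose with radiation by 0.96 on the log2 scale in WT and by 0.98 in KO (SE 0.14, limma adjusted p = 0.00554 and 0.00506). For KO against WT it gave 0.55 in unirradiated and 0.57 in irradiated cells (limma adjusted p = 0.101 and 0.0592).

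The SPRR2 genes and SPRR3, precursors of the same family, were near the floor of the table. SPRR2D was listed at 0, 0.121 and 0.107 TPM in unirradiated WT, 0.170, 0.245 and 0.318 TPM in unirradiated KO, 0.440, 0.774 and 0.420 TPM in irradiated WT and 0.415, 0.538 and 0.787 TPM in irradiated KO libraries. The irradiated libraries lay above the unirradiated ones in both genotypes, and unirradiated KO lay above unirradiated WT (two-sided exact permutation test, p = 0.1 in each case, the smallest that 3 against 3 libraries allow). SPRR2A was listed at 0 in 4 of the 12 libraries and ranged from 0 to 0.520 TPM in unirradiated KO. Irradiated KO (0.899, 0.518 and 0.533 TPM) lay above irradiated WT (0, 0 and 0.207 TPM, exact permutation p = 0.1) and also above unirradiated WT (0.231, 0.409 and 0 TPM), a pair that was not tested, and the other groups overlapped. The TPM of SPRR2A and SPRR2D summed to 0.107 to 0.530 in unirradiated WT, 0.245 to 0.839 in unirradiated KO, 0.440 to 0.774 in irradiated WT and 1.06 to 1.32 in irradiated KO libraries. The sum reached the filter only through irradiated KO, so these values are given as a description, and limma called none of the comparisons. SPRR3 was listed at 0.247 TPM in 1 irradiated KO library and at 0 in the other 11.

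**Figure D1:**
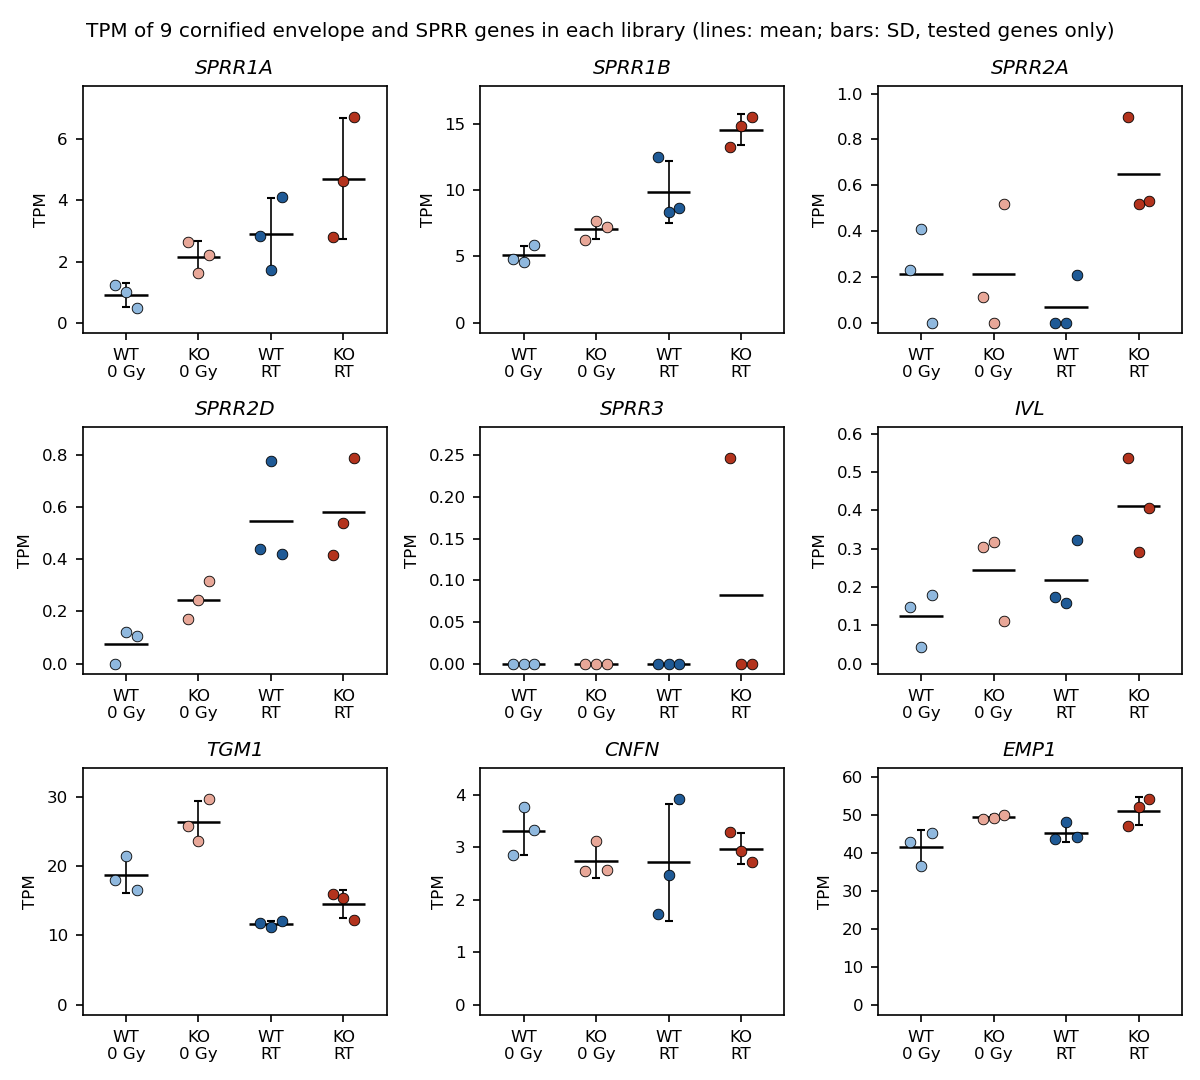
TPM (vertical axes, each on its own scale from 0) of 9 genes in the 3 libraries of each of the 4 groups, with the group mean as a line and, for the 5 tested genes, the SD as a bar; CRCT1, at 0 throughout, is not drawn. SPRR1B climbs from 4.57 to 15.5 TPM across groups that do not overlap, although its KO against WT differences were not called. TGM1 drops with radiation, and SPRR2A, SPRR2D, SPRR3 and IVL stay under 1 TPM.

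IVL, a scaffold protein of the envelope, was detected in every library but only at 0.0449 to 0.537 TPM. Its means were 0.124 ± 0.0702 in unirradiated WT, 0.244 ± 0.116 in unirradiated KO, 0.219 ± 0.0912 in irradiated WT and 0.411 ± 0.123 TPM in irradiated KO libraries (SD, n = 3), with overlap between neighbouring groups. The exact permutation p was 0.2 for KO against WT in irradiated cells and 0.3 in each of the other 3 comparisons. CRCT1, which also lies in the complex, was listed at 0 throughout.

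TGM1, the membrane-anchored transglutaminase of keratinocytes, went the other way from SPRR1B with radiation. It was measured at 18.0, 21.5 and 16.5 TPM in unirradiated WT, 25.8, 23.7 and 29.7 TPM in unirradiated KO, 11.8, 11.3 and 12.1 TPM in irradiated WT and 15.9, 15.3 and 12.2 TPM in irradiated KO libraries. From irradiated WT through irradiated KO and unirradiated WT to unirradiated KO, each range lay above the one before, although the first pair was separated by a narrow gap. The step from irradiated KO to unirradiated WT changes both genotype and dose and was not tested. Radiation lowered TGM1 to 0.627 times its unirradiated mean in WT (log2 fold change -0.62, SE 0.12, limma adjusted p = 0.0223) and to 0.549 times in KO (log2 fold change -0.83, SE 0.12, limma adjusted p = 0.00542). KO exceeded WT by 0.48 on the log2 scale in unirradiated cells (95% interval 0.21 to 0.75, limma adjusted p = 0.093) and by 0.28 in irradiated cells (limma adjusted p = 0.266), without passing. The fall in WT was lost when any of 5 libraries was left out: unirradiated WT library 1 or 2 and irradiated WT library 1, 2 or 3 (limma adjusted p = 0.0573 to 0.0787). The fall in KO kept its call with every library left out in turn.

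EMP1 had the highest TPM of the 10. It was measured at 42.9, 36.5 and 45.2 TPM in unirradiated WT, 49.0, 49.2 and 50.0 TPM in unirradiated KO, 43.7, 48.2 and 44.3 TPM in irradiated WT and 47.1, 52.2 and 54.3 TPM in irradiated KO libraries. The unirradiated KO libraries lay above both WT groups, and the other neighbouring ranges overlapped. The KO against WT log2 fold change was 0.25 in unirradiated cells (95% interval 0.07 to 0.43, limma adjusted p = 0.185), and radiation changed EMP1 by 0.13 in WT and 0.05 in KO (limma adjusted p = 0.453 and 0.818). CNFN, the envelope protein cornifelin, lay between 1.73 and 3.92 TPM in all libraries with overlap in every comparison, and its log2 fold changes ran from -0.26 to 0.14.

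**Figure D2:**
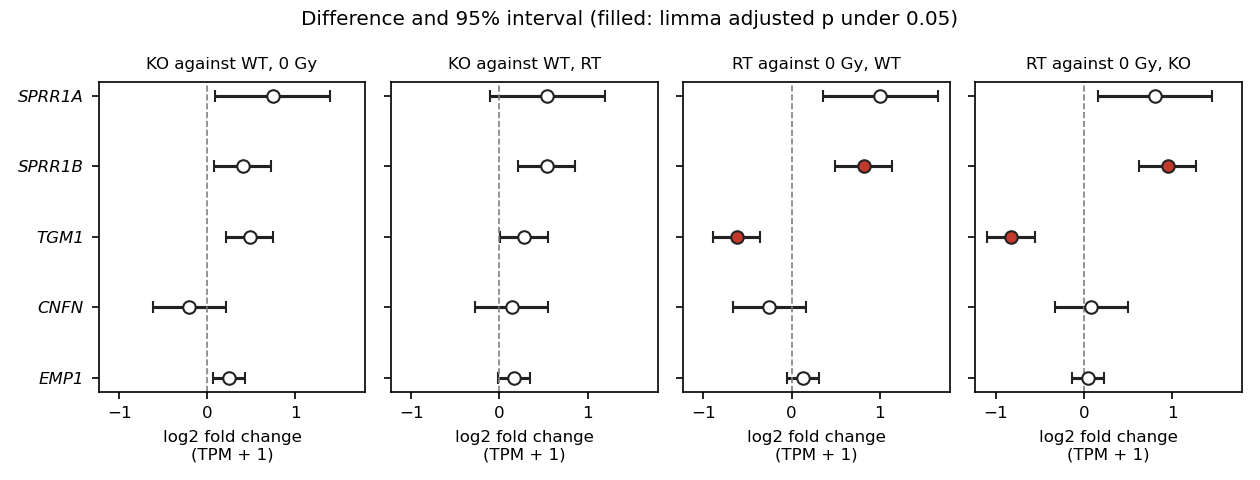
Log2 fold change of TPM + 1 (horizontal axes) with its 95% interval for the 5 tested genes in 4 comparisons, filled where the limma adjusted p was under 0.05. SPRR1B (0.82 and 0.95) and TGM1 (-0.62 and -0.83) are filled in both radiation comparisons, and no gene is filled for KO against WT.

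Counted over the 5 tested genes, 1 rose and 1 fell with radiation in WT, where 3.74% of the 15973 genes tested were called in either direction, and 1 rose and 1 fell in KO, where 3.69% were called. No gene of the 5 was called by limma for KO against WT in unirradiated cells (1.73% of all tested genes called), or in irradiated cells (3.59% called). An unadjusted p under 0.05 was found for 4 of the 5 in unirradiated cells, beside 14.3% of all tested genes, and for 2 of the 5 in irradiated cells, beside 17.9%. The median log2 fold change of the 5 for KO against WT was 0.40 in unirradiated cells, beside -0.02 for all tested genes, and 0.28 in irradiated cells, beside -0.02. Libraries did not overlap between KO and WT for 4 of the 5 genes in unirradiated cells (20.6% of all tested genes) and for 2 in irradiated cells (24.1%). With radiation they did not overlap for 3 of the 5 in WT (24.8%) and for 3 in KO (24.3%). These comparisons share libraries and are not independent of each other.

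Whether radiation acted differently in KO than in WT was tested directly. No gene of the 5 was called, none had an unadjusted p under 0.05, and 0.0188% of all tested genes were called. The difference of the radiation effects, KO minus WT, was 0.13 for SPRR1B (95% interval -0.32 to 0.59, limma adjusted p = 0.942) and -0.20 for TGM1 (95% interval -0.58 to 0.18, limma adjusted p = 0.881). These intervals include 0 and do not show that the effects were equal.

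Apart from SPRR1A and SPRR1B, the stretch of the epidermal differentiation complex from TCHHL1 to PGLYRP4 was close to silent. S100 genes outside this stretch were not examined here. Between TCHHL1 and PGLYRP4 (chr1:152084144-153348840), 46 protein-coding genes were listed, of which 19 were at 0 in all 12 libraries and only SPRR1A and SPRR1B had a mean of at least 1 TPM. LOR, the gene for loricrin, was at 0 throughout. Of 40 genes of this stretch other than the 10 described above, 1 could be tested. It was TCHHL1, a trichohyalin-like member of the S100-fused family, at 0.360, 0.302 and 0.281 TPM in unirradiated WT, 0.906, 1.05 and 1.13 TPM in unirradiated KO, 0.669, 0.280 and 0.461 TPM in irradiated WT and 1.44, 1.59 and 2.02 TPM in irradiated KO libraries. KO lay above WT in both arms, with log2 fold changes of 0.62 in unirradiated and 0.87 in irradiated cells. TCHHL1 reached the filter only through its KO libraries, so these values are given as a description and its limma calls are not read as a result. The call in unirradiated cells was lost in 12 of 19 alternative settings, 9 of which left out a single library.

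**Figure D3:**
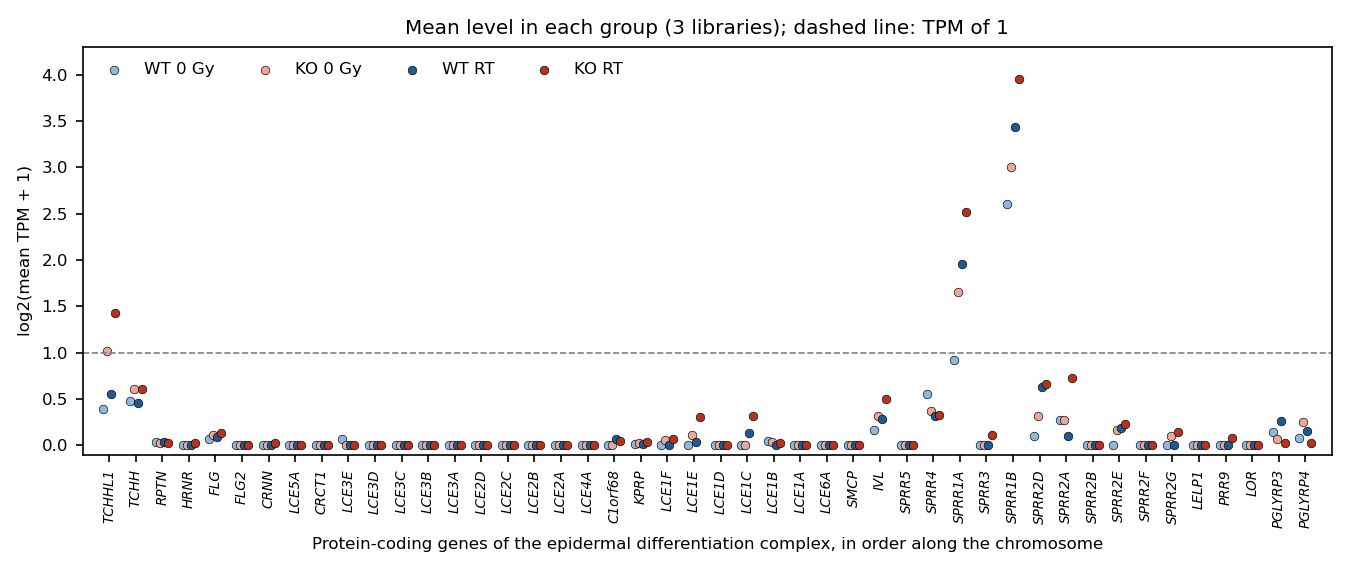
Mean level of the 46 protein-coding genes of the complex from TCHHL1 to PGLYRP4 in their order along the chromosome, as log2(mean TPM + 1) on the vertical axis, with 1 point per group of 3 libraries and a dashed line at 1 TPM. SPRR1A and SPRR1B rise above the line in nearly every group, TCHHL1 only in KO, and the late cornified envelope (LCE) genes and LOR sit at or near 0.

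Other envelope and barrier genes outside the complex were measured at higher levels and moved separately. Of 33 listed by name, 19 were tested. Over the lists of related genes and markers given here there were 48 calls by gene and comparison, of which 11 were kept under every alternative setting and 37 were lost under at least 1. CST6, which encodes cystatin M/E, an inhibitor of cysteine proteases in the epidermis, was at 9.43, 13.3 and 12.6 TPM in unirradiated WT and 11.8, 11.5 and 10.9 TPM in unirradiated KO, against 23.0, 25.0 and 26.7 TPM in irradiated WT and 25.8, 27.0 and 22.2 TPM in irradiated KO libraries. The irradiated libraries did not overlap the unirradiated ones in either genotype. CST6 rose by 1.03 and 1.07 on the log2 scale (SE 0.12, limma adjusted p = 0.00139 and 0.00116), and both calls were kept under every alternative setting. In WT it was the 1 gene of the 19 that rose, and SCEL (sciellin, an envelope precursor) and CSTA (cystatin A) fell, by 0.40 and by 0.26 on the log2 scale (limma adjusted p = 0.0432 and 0.0342). These 2 falls lost their call in 13 and 12 of 20 alternative settings. Of all tested genes, 3.74% were called with radiation in WT and 3.69% in KO. In KO, CST6 and ELOVL4, an elongase of very long chain fatty acids, rose (ELOVL4 log2 fold change 0.28, limma adjusted p = 0.0397) and LY6D, a surface antigen of squamous cells, fell by 0.63 (limma adjusted p = 0.0395). The ELOVL4 call was lost in 13 of 20 alternative settings and the LY6D call in 9 of 20. KO against WT called none of the 19 by limma in unirradiated cells (7 had an unadjusted p under 0.05, beside 14.3% of all tested genes) and SCEL alone in irradiated cells (log2 fold change 0.42, limma adjusted p = 0.0331). That SCEL call was lost in 10 of 20 alternative settings. Of all tested genes, 1.73% were called in unirradiated and 3.59% in irradiated cells. The list's median log2 fold change was 0.01 in WT and 0.15 in KO with radiation, beside 0.02 for all tested genes in each.

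Transcription factors and receptors known in squamous terminal differentiation were mostly expressed, with 33 of 40 tested. KLF4, a factor that drives barrier genes in epidermis, was at 27.5, 25.8 and 17.6 TPM in unirradiated WT and 5.80, 6.29 and 4.78 TPM in unirradiated KO, and at 32.4, 30.0 and 25.9 against 8.60, 9.27 and 7.24 TPM after radiation. KO lay under WT in both arms, with log2 fold changes of -1.88 and -1.70 (SE 0.16, limma adjusted p = 0.000151 and 0.00022). NOTCH3, a receptor that acts in suprabasal keratinocytes, was higher in KO by 0.46 and 0.33 (limma adjusted p = 0.0106 and 0.0391) and fell with radiation by 0.63 in WT and by 0.76 in KO on the log2 scale (limma adjusted p = 0.00157 and 0.000619). In unirradiated cells KLF4 and NOTCH3 were the 2 genes of the list that were called for KO against WT, beside 1.73% of all tested genes. Both KLF4 calls were kept under every alternative setting. In irradiated cells 3 were higher in KO (GRHL1, NOTCH3 and, named after its values were seen, NOTCH1) and 2 lower (KLF4 and FOSL1, the latter at a log2 fold change of -0.43, limma adjusted p = 0.0281). Of all tested genes, 3.59% were called in that comparison. The NOTCH3 and NOTCH1 calls between KO and WT in irradiated cells were each lost in 13 of 20 alternative settings, the GRHL1 call in 9 of 20 and the FOSL1 call in 6 of 20. In unirradiated cells the NOTCH3 call was lost in 2 of 20.

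With radiation, 2 of the 33 rose and 5 fell in WT, and 3 rose and 7 fell in KO. Of all tested genes, 3.74% were called in WT and 3.69% in KO. FOSL1, an AP-1 subunit, was at 181, 137 and 175 TPM in unirradiated WT and 284, 281 and 269 TPM in irradiated WT, and at 146, 144 and 148 against 217, 204 and 199 TPM in KO libraries. It rose by 0.76 in WT and by 0.50 in KO (limma adjusted p = 0.0014 and 0.0155). OVOL1, a repressor active in differentiating keratinocytes, rose by 0.48 and 0.41 (limma adjusted p = 0.0123 and 0.0262). ELF3, an epithelial ETS factor known to act on SPRR and TGM genes, fell by 0.80 in WT and by 0.74 in KO on the log2 scale (limma adjusted p = 0.00457 and 0.00636), from 212 to 258 TPM in unirradiated WT to 132 to 142 TPM in irradiated WT. JUNB, another AP-1 subunit, named after its values were seen, fell by 0.38 on the log2 scale in KO (limma adjusted p = 0.00216). The list's median was -0.02 in WT and -0.09 in KO, beside 0.02 for all tested genes.

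**Figure D4:**
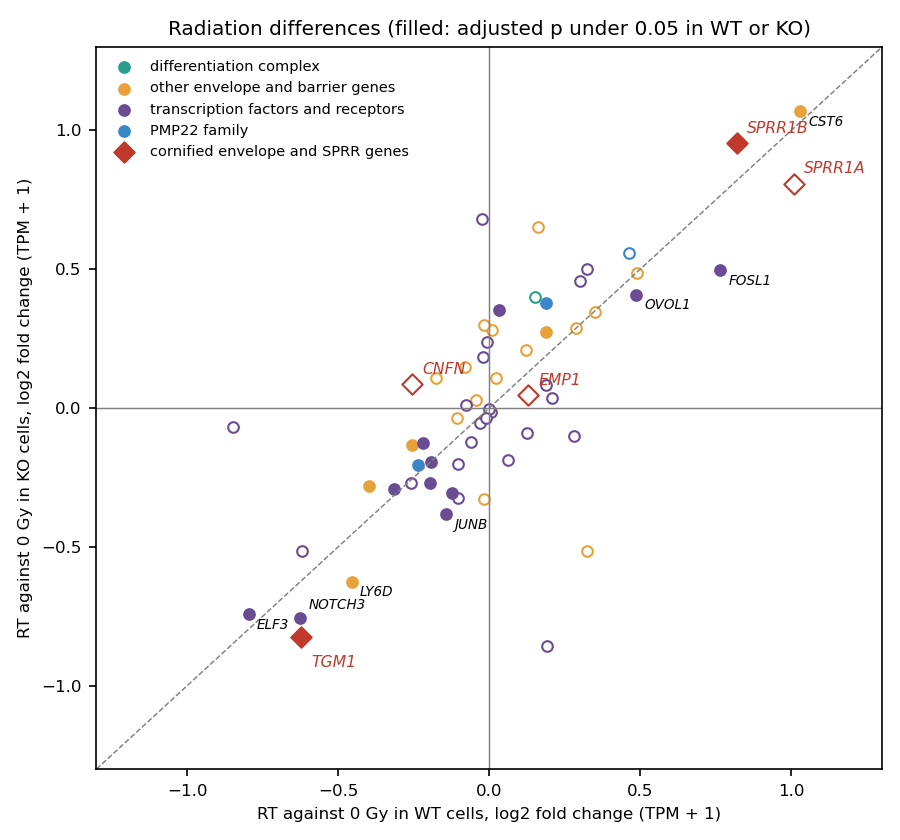
Log2 fold change of TPM + 1 with radiation in WT (horizontal axis) and in KO (vertical axis) for the 5 tested envelope genes (diamonds) and the tested genes of 4 lists (circles), filled where the limma adjusted p was under 0.05 in at least 1 genotype; the dashed line marks equal values. SPRR1B lies near CST6 (1.03 and 1.07) at the upper right, and TGM1 near NOTCH3 (-0.63 and -0.76) and ELF3 (-0.80 and -0.74) at the lower left.

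The relatives of EMP1 in the PMP22 family, EMP2, EMP3 and PMP22, were all tested. EMP2 fell with radiation in WT by 0.24 on the log2 scale (limma adjusted p = 0.0354), a call lost in 11 of 20 alternative settings. PMP22 was lower in unirradiated KO, at 7.46, 7.80 and 7.66 against 9.73, 10.0 and 9.87 TPM (log2 fold change -0.33, limma adjusted p = 0.0432), and rose with radiation in KO by 0.38 (limma adjusted p = 0.0181). The call for PMP22 between the unirradiated groups was lost in 15 of 20 alternative settings, 2 of them other scalings of the libraries.

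Among markers of the line itself, KRT17 was lower in KO (log2 fold change -0.29 and -0.46 in unirradiated and irradiated cells, limma adjusted p = 0.0141 and 0.000492), KRT14 was higher in unirradiated KO (0.24, limma adjusted p = 0.0217) and SFN lower in irradiated KO (-0.21, limma adjusted p = 0.0378). With radiation DSG3, a desmosomal cadherin, fell by 0.38 in both genotypes, EPCAM rose by 0.15 in WT and 0.18 in KO, and SFN fell by 0.28 in KO (limma adjusted p = 0.0056 to 0.0461). The KRT14 call was lost in 8 of 20 alternative settings and the KRT17 call in unirradiated cells in 5 of 20. The KRT17 call in irradiated cells was kept under every alternative setting. The EPCAM call in WT was lost in 16 of 20 alternative settings, among them each of the 12 with 1 library left out, and the EPCAM call in KO in 9 of 20. The SFN call for KO against WT in irradiated cells was lost in 14 of 20. Of the 6 tested markers of other cell types, CDH5 rose with radiation by 0.61 in both genotypes (limma adjusted p = 0.0285 and 0.0261) and CD14 was higher in unirradiated KO (0.40, limma adjusted p = 0.0434). The CDH5 calls were lost in 8 of 20 alternative settings in WT and 7 of 20 in KO, and the CD14 call in 13 of 19. The 14 markers summed to 43.7 to 54.5 TPM in unirradiated and 52.4 to 67.8 TPM in irradiated libraries. The part of these shifts in the results above was not tested.

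The joint profile of SPRR1A and SPRR1B over the 12 libraries was compared with the 11142 other tested genes with a mean of at least 5 TPM. The 8 most alike were MMP10 (Pearson's r = 0.956), IGFL1 (0.946), MMP1 (0.945), PSMD9 (0.943), AVEN (0.930), RAP1GAP (0.930), PCYOX1 (0.923) and SLC12A2 (0.914), given as a description over 12 libraries that share their 4 groups. IGFL1, a gene of the IGF-like family, had mean levels of 45.8, 72.7, 118 and 221 TPM in unirradiated WT, unirradiated KO, irradiated WT and irradiated KO. MMP10, a stromelysin, had 3.49, 7.15, 8.27 and 18.0 TPM, and MMP1, the interstitial collagenase, 6.43, 12.6, 15.4 and 25.7 TPM in the same order. Because the 8 were chosen for following a profile that rises with radiation, their own rise is part of the choice and no test of it is given.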

How the data were processed

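RNA was sequenced from 12 FaDu libraries (3 per group) after oligo-dT selection, as paired 100-base reads. The authors deposited 1 table of TPM (transcripts per 1e+06 transcripts) for all libraries. The submitters' processing notes name HISAT2, StringTie, DESeq2 and hg38, without versions. The annotation was not given in the sources used here. TPM sums to 1e+06 in each library and keeps no read depth, so the depth behind each value is unknown, no counting interval could be given and no count model was run.

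Columns were matched to groups by the dose and the genotype code in their names, the codes being read from the study's own table heads, since the labels do not hold them. Genes with TPM of at least 1 in 3 or more libraries (15973 of 58288) were fitted on log2(TPM + 1) with limma 3.58.1 in R 4.3.3: 4 group means, 8 residual degrees of freedom, eBayes with trend, 5 contrasts, Benjamini-Hochberg adjusted p under 0.05 over all tested genes. Fold changes on this scale understate changes of low genes. The members below the filter were compared by two-sided exact permutation tests of mean TPM. The step was tested on simulated data.

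The 10 genes, the lists and the markers were chosen with earlier results of these data known. Named were the 10 genes, TMEM173, of each list the genes past the threshold (the 4 with the largest change where more passed) and the 8 genes most alike in profile to the tested SPRR genes. Alternatives were a pseudocount of 0.1, quantile normalization, no filter, scaling by median-of-ratios factors, a replicate block, a filter at a mean TPM of 5, an untrended eBayes, only the libraries compared, summed paralogs and each library left out. Positions and coding sequences came from GENCODE 29 (55661 identifiers matched with their version), and promoters from RefSeq. Sequences were compared with Biopython 1.88 under Python 3.11.15, and figures were drawn with matplotlib 3.10.9.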

Additional observations from a re-analysis of the deposited data

How the results depend on the processing

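With radiation in KO cells, 2 of the 5 tested genes passed under every alternative: SPRR1B (limma adjusted p = 0.00253 to 0.0337) and TGM1 (0.00317 to 0.0472). In WT cells the count of 2 was less stable. It was 0 with no filter on low values, 0 with only the libraries compared, 1 with the replicate block, and 0 to 2 with 1 library left out (0 without unirradiated WT library 1 or 2, 1 without any one irradiated WT library), although SPRR1B had log2 fold changes of 0.65 to 0.92 over the alternatives fitted to it alone (0.96 for the summed pair) and TGM1 of -0.70 to -0.52. For KO against WT in irradiated cells the count ran from 0 to 1 with 1 library left out, the 1 being SPRR1B without irradiated WT library 1. Values near 0 changed sign when 1 library was left out: CNFN for KO against WT in irradiated cells ranged from -0.0595 to 0.36, TMEM173 with radiation in WT from -0.0334 to 0.10, and the difference of radiation effects from -0.45 to 0.0670 for SPRR1A (0.0199 for the summed pair) and from -0.14 to 0.00593 for EMP1. The cause was not tested. Same-numbered libraries did not deviate together over all tested genes (r = -0.06 to 0.06 over 18 pairs, 0 above 0.1). This check could miss a shared culture or batch that acts on part of the genes, so whether equal numbers mark pairs is not known. The main fit did not pair them. The replicate block took the genes called of all tested from 276 to 211 (KO against WT, unirradiated), 573 to 378 (irradiated), 597 to 315 (radiation in WT) and 590 to 359 (radiation in KO). With only the libraries compared these were 103, 252, 166 and 195. With 1 library left out they ranged from 172 to 292, 313 to 542, 242 to 526 and 268 to 553.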
